A study of Mus musculus with 5 samples.

Results

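The IGF axis was described from 10 of the 49671 genes in the count table, namely the binding proteins Igfbp2, Igfbp3, Igfbp4, Igfbp5, Igfbp6 and Igfbp7, the ligand Igf1, the receptors Igf1r and Insr, and the adaptor Irs1. The genes were selected by name, with results of the same embryos already known, for their level in each embryo and their direction between genotypes. Their differences between genotypes are therefore a description, and where a fit across all genes called one of them, the call restates that choice and supports nothing. RNA came from 2 SO+ and 3 SO- mouse embryos at E6.75, each library holding the epiblast and visceral endoderm (VE) of 1 embryo after the extra-embryonic ectoderm had been cut away. SO- embryos carried 1 copy of the Sox2Cre transgene, and their Oct4 alleles were one floxed and one null. SO+ embryos, labelled as wild type, had no Cre and carried a floxed beside an intact Oct4 allele. The paper uses the name SO+ more widely, also for embryos that were functionally heterozygous for Oct4. All embryos were of mixed strain background. Sox2Cre acts mainly in the epiblast, so that Oct4 is deleted there and not in the VE, and the deletion is mosaic when it begins. In whole pieces of tissue such as these, fewer cells of a type and less RNA per cell cannot be told apart.

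IGF1 and IGF2 are secreted growth factors that signal through IGF1R, a receptor tyrosine kinase related to the insulin receptor. IRS adaptors bind the activated receptor and link it to PI3K and AKT, which restrains FOXO transcription factors and activates mTOR. Secreted IGF binding proteins hold the ligands in the extracellular space, where they can keep them from the receptor, protect them from breakdown or release them after proteolysis. In the early mouse embryo IGF2 is the main ligand.

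The 4 binding proteins that passed the expression filter lie in 3 places of the genome, and the stretches before their starts are shown because 3 of these genes were higher in every SO- than in every SO+ embryo and the remaining one, Igfbp4, was not. Each sequence holds the 150 bases before the RefSeq start of the gene on GRCm38.p6, read 5′ to 3′ on the strand of the gene. They cover chr11:7213924-7214073 on the minus strand for Igfbp3, chr1:72874866-72875015 on the minus strand for Igfbp5, chr1:72824330-72824479 on the plus strand for the first of the 2 Igfbp2 starts and chr11:99041094-99041243 on the plus strand for Igfbp4. Capitals mark the letters TATNNA on the strand of the gene within 60 bases of the start, a search chosen after these sequences had been read.
Igfbp3: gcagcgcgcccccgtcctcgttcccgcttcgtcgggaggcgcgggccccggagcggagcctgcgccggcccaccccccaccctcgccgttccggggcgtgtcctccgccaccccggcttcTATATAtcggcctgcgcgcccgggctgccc
Igfbp5: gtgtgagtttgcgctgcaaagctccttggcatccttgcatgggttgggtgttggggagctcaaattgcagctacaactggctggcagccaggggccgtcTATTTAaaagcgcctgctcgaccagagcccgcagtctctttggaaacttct
Igfbp2: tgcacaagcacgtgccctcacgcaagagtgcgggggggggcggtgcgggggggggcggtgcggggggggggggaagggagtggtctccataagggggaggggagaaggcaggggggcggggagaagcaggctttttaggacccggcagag
Igfbp4: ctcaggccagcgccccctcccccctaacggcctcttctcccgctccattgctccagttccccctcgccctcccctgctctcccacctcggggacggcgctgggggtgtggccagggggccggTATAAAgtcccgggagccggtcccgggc

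The marked letters began 30 bases before the start of Igfbp3, 51 before Igfbp5 and 28 before Igfbp4, and were not in the window of Igfbp2. They were found in 12% of 32851 promoters in the same window. In the 250 bases before the start, CpG dinucleotides numbered 32 in Igfbp3, 22 in Igfbp4, 14 in Igfbp2 and 10 in Igfbp5, against a median of 6 over all promoters. GC content in this window was 73.2% in Igfbp3, 69.2% in Igfbp4, 67.2% in Igfbp2 and 58.8% in Igfbp5. None of the 4 windows held any of 7 words searched on both strands, which were the octamer ATGCAAAT (in 1.6% of promoters), its first 7 letters ATGCAAA, which every ATGCAAAT also holds (4.12%), ACAAAG of SOX factors (16.5%), CAGAC of SMADs (42.2%), CTTTGA of TCF factors (13.8%), GTAAACA of forkhead factors (3.17%) and TGATAA of GATA factors (7.94%). The second Igfbp2 start had CAGAC, as had Igf1r, Irs1 and Igfbp6. Promoters were matched for 9 of the 10 genes, and Insr was not among them.

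Igfbp2 and Igfbp5 are neighbours on chromosome 1 (72824503-72852474 on the plus strand and 72857932-72874884 on the minus strand, GRCm38), with their ends facing each other across 5457 bases. These coordinates are from GENCODE, and the RefSeq start of Igfbp5 lies a few bases inside them. Igfbp3 has the same arrangement on chromosome 11 (7206086-7213923, minus strand) with Igfbp1 (7197782-7202546, plus strand) across 3539 bases, while Igfbp4 lies elsewhere on chromosome 11 (99041244-99054392, plus strand). Igfbp6 is on chromosome 15 (102144362-102149511), Igfbp7 on chromosome 5 (77349240-77408041), Igf1 on chromosome 10 (87858265-87937042), Igf1r on chromosome 7 (67952827-68233668), Insr on chromosome 8 (3122061-3279617) and Irs1 on chromosome 1 (82233101-82291416). The exons of Igfbp2, Igfbp3, Igfbp4, Igfbp5, Igfbp6, Igf1, Igf1r and Insr shared no base with those of another gene in the annotation. Igfbp7 shared 85 bases with Polr2b and Irs1 2822 bases with Gm9747, both on the opposite strand. Polr2b had 6403 and 6250 counts in the SO+ and 896, 257 and 961 in the SO- libraries, and Gm9747 had 0 counts in all 5 libraries.

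Counts summed to 27047148 and 27538119 in the SO+ libraries and to between 1117566 and 4191498 in the SO- libraries, a mean difference of 8.67-fold. A floor of 3 counts stood at 0.109 and 0.111 CPM (counts per 1000000 counts of the library) in SO+ embryos 1 and 2, and at 0.726, 2.68 and 0.716 CPM in SO- embryos 1, 2 and 3, which covers counting error only. Values of low genes are thus least precise in SO- embryo 2. Both SO+ libraries carried one second sequencing index and all SO- libraries another, so that index and genotype cannot be told apart. Pou5f1, which encodes Oct4, stood at 920 and 435 CPM in the SO+ embryos and at 27.8, 12.5 and 43.7 CPM in the SO- embryos. Summed VE markers (13 genes, none at 0 throughout) reached 3332 and 3752 CPM in SO+ and 5094, 5048 and 3188 CPM in SO- embryos.

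Igfbp2 was the most abundant binding protein in every embryo, also per kb of exon. It is a secreted carrier of both IGFs that is widely made in embryonic tissues. Igfbp2 stood at 253 and 239 CPM in SO+ embryos 1 and 2, and at 362, 370 and 392 CPM in SO- embryos 1, 2 and 3. All SO- embryos lay above both SO+ embryos and each genotype was narrow. The log2 fold change of SO- over SO+ was 0.61 (SE 0.10), with means of 246 ± 9.59 CPM (SD, n = 2) and 374 ± 15.8 CPM (SD, n = 3).

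Igfbp3, which carries most of the IGF in adult serum and also binds it in tissues, differed more. Its level was 32.3 and 26.8 CPM in the SO+ embryos, against 142, 248 and 130 CPM in the SO- embryos. The lowest SO- embryo had 4.04 times the level of the highest SO+ embryo, and the SO- embryos themselves spanned 1.90-fold. The log2 fold change was 2.51 (SE 0.24), or a ratio of means of 5.87. The highest value belonged to the shallowest library, SO- embryo 2, where it rested on 277 counts.

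Igfbp5, a binding protein with high affinity for IGFs that also attaches to the extracellular matrix, was scarce in SO+ embryos. It had 91 and 34 counts there, or 3.30 and 1.26 CPM. The SO- embryos had 167, 22 and 32 counts, or 40.4, 19.7 and 7.63 CPM. The ranges did not overlap, and the lowest SO- embryo was 2.31 times the highest SO+ embryo. The 3 SO- embryos spread over 5.29-fold and SO+ embryo 1 was 2.63 times SO+ embryo 2, so the log2 fold change of 3.33 (SE 0.62) was the least precise of the 6 fitted. The 95% counting intervals were 34.5 to 47.0 CPM in SO- embryo 1, 12.3 to 29.8 in SO- embryo 2 and 5.22 to 10.8 in SO- embryo 3, none of which overlapped another. These intervals cover counting error alone, not duplicate reads or other spread between libraries.

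Igfbp4, a carrier that is cut by the protease PAPP-A, did not separate the genotypes. It stood at 99.8 and 160 CPM in SO+ embryos and at 204, 178 and 133 CPM in SO- embryos. The level of SO- embryo 3 was under that of SO+ embryo 2. The log2 fold change was 0.40 (SE 0.20). The SO+ embryos differed 1.60-fold in Igfbp4 and 1.06-fold in Igfbp2.

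Igfbp6 and Igfbp7 were scarce and did not pass the expression filter. Igfbp6, which prefers IGF2 over IGF1, had 19 and 16 counts in SO+ embryos, against 7, 3 and 0 in SO- embryos, or 0.690, 0.592, 1.69, 2.68 and 0 CPM. The genotypes overlapped. Igfbp7, which binds IGFs only weakly, had 0 and 10 counts in SO+ embryos, against 0, 0 and 2 in SO- embryos. Neither gene gave a direction at this depth.

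**Figure D1:**
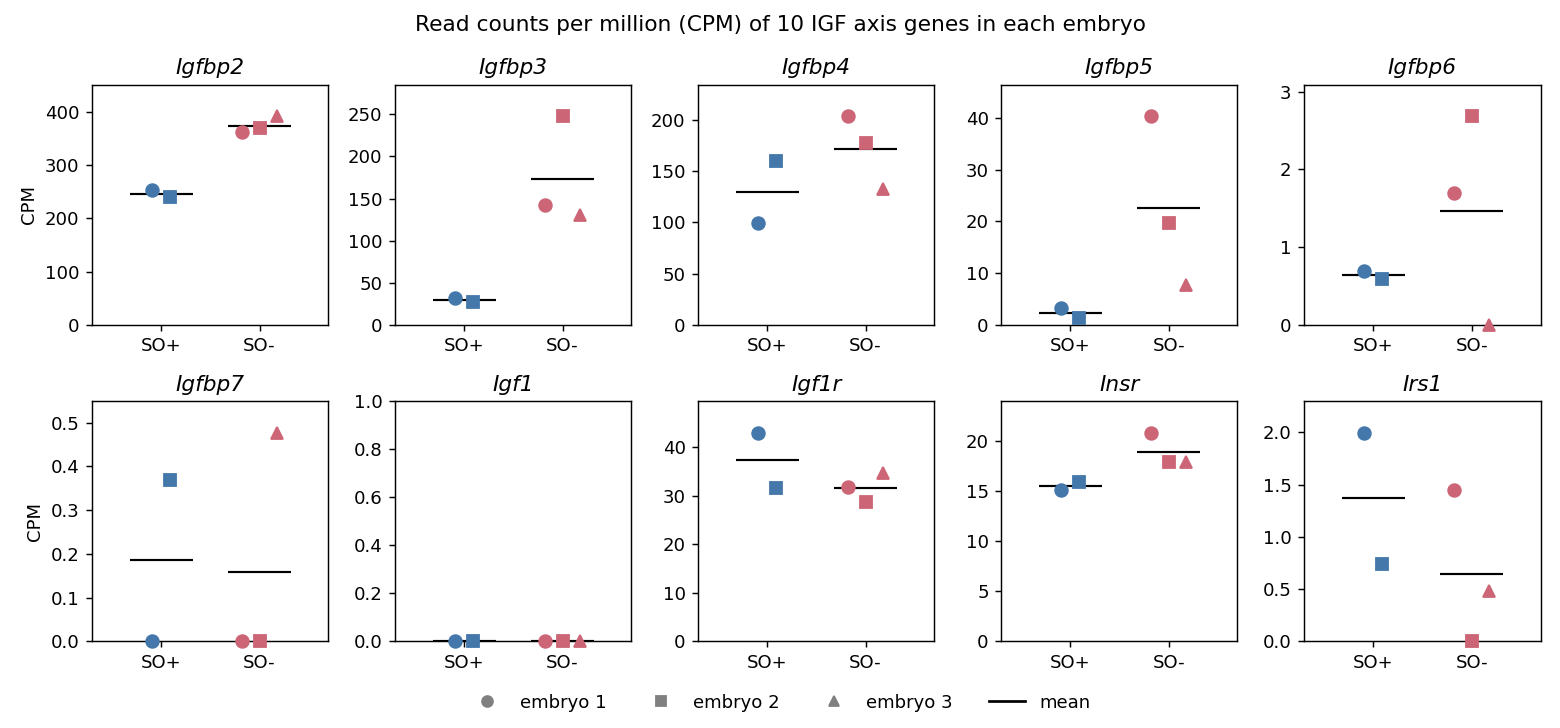
CPM of each of the 10 genes (vertical axes, each from 0 with its own scale) in 2 SO+ and 3 SO- embryos, with symbols for embryo number and a black line at the mean. Igfbp2, Igfbp3, Igfbp5 and Insr have every SO- embryo above both SO+ embryos, Igfbp4 and Igf1r overlap, and Igfbp6, Igfbp7, Igf1 and Irs1 stay below 3 CPM.

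Igf1 had 0 counts in all 5 embryos. Over the genotypes together, 3 counts correspond to 0.0550 CPM for the 54585267 counts of the SO+ and to 0.318 CPM for the 9443681 counts of the SO- embryos, so levels up to these values could have gone unseen. Igf1r, the receptor of both ligands, was present throughout at 42.9 and 31.5 CPM in SO+ and 31.7, 28.6 and 34.6 CPM in SO- embryos. The genotypes overlapped, with a log2 fold change of -0.21 (SE 0.20).

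Insr, the insulin receptor, of which one isoform also binds IGF2, was at 15.1 and 15.9 CPM in SO+ and 20.8, 17.9 and 17.9 CPM in SO- embryos. All SO- values were above both SO+ values by a small margin, and the log2 fold change was 0.30 (SE 0.24). The highest, in SO- embryo 1, rested on 86 counts and that of SO- embryo 2 on 20. Irs1, the adaptor, had 55 and 20 counts in SO+ embryos, against 6, 0 and 2 in SO- embryos, or 2.00, 0.739, 1.45, 0 and 0.477 CPM, and did not pass the filter. Its 2 SO+ libraries differed 2.70-fold, and the genotypes overlapped.

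Of the 10 genes, 6 entered the fit over 12067 genes by edgeR's quasi-likelihood test, which called Igfbp2, Igfbp3 and Igfbp5 as higher and none as lower in SO-. Over all tested genes 2.35% passed an adjusted p of 0.05, 1.42% as higher and 0.928% as lower in SO-. The median log2 fold change of the 6 was 0.51, with 5 of 6 above 0, against -0.0019 over all tested genes. Ranges did not overlap in 4 of the 6, always with SO- above, where 13.9% of all tested genes had SO- wholly above and 15.6% wholly below. Nothing is read from these calls or shares, as the genes were chosen on this comparison. Of the 4 binding proteins fitted, Igfbp2, Igfbp3 and Igfbp5 had all SO- embryos above all SO+ embryos, and Igfbp4 overlapped.

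**Figure D2:**
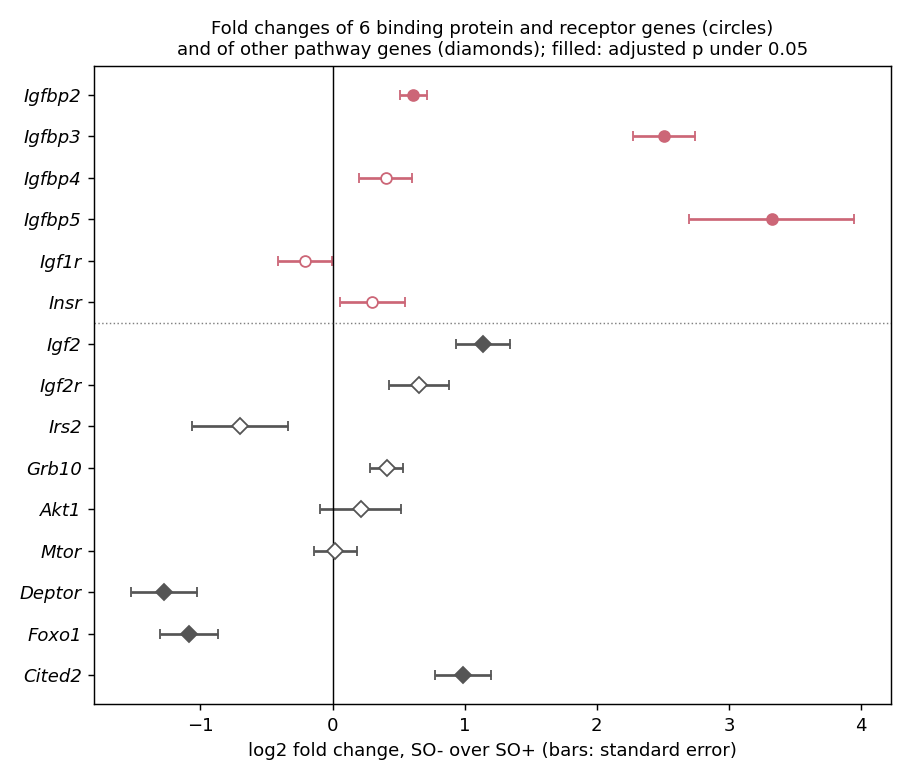
Log2 fold change of SO- over SO+ (horizontal axis) with its standard error for the 6 tested genes (circles) and for 9 other genes of the pathway (diamonds), filled where the adjusted p was under 0.05. Igfbp3 and Igfbp5 lie furthest to the right at 2.51 and 3.33, while Igf1r, Akt1 and Mtor lie near 0.

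Levels of different genes were compared after division by exon length, as CPM per kb. In SO+ embryos the order was Igfbp2 (133 ± 5.19 CPM per kb, SD, n = 2), Igfbp4 (29.4 ± 9.64), Igfbp3 (9.44 ± 1.24), Igf1r (2.22 ± 0.479) and Insr (1.13 ± 0.0426), and the ranges of these neighbours were apart. Below them Igfbp6, Igfbp5, Igfbp7 and Irs1 overlapped each with the next, from 0.576 to 0.150 CPM per kb. In SO- embryos Igfbp2 was again first (203 ± 8.53, n = 3). Igfbp3 (55.4 ± 20.7) and Igfbp4 (38.9 ± 8.14) followed with overlapping ranges, and Igfbp5 (3.76 ± 2.76) overlapped with Igf1r (1.88 ± 0.177). Insr (1.37 ± 0.122), Igfbp6, Igfbp7 and Irs1 came last. Igfbp3 thus stood below Igfbp4 in both SO+ embryos, at 0.456 and 0.236 times its level, and at 0.981, 1.96 and 1.38 times it in the SO- embryos.

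The summed level of the 6 binding proteins was 171 and 175 CPM per kb in SO+ and 295, 325 and 286 CPM per kb in SO- embryos, a ratio of means of 1.74. Igfbp2 made up 80.1% and 73.9% of this sum in SO+ and 66.3%, 61.5% and 74.3% in SO- embryos. Its share overlapped between genotypes although its level did not. The share of Igfbp3 was 6.03% and 4.88% in SO+ and 15.3%, 24.3% and 14.6% in SO- embryos, without overlap. Igfbp4 held 13.2% and 20.6%, then 15.6%, 12.4% and 10.5%, with overlap. Igfbp5 was the smallest of the 4 in every embryo and reached at most 2.28%, in SO- embryo 1. Shares within a sum are not independent, since a larger share of one gene lowers the others.

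**Figure D3:**
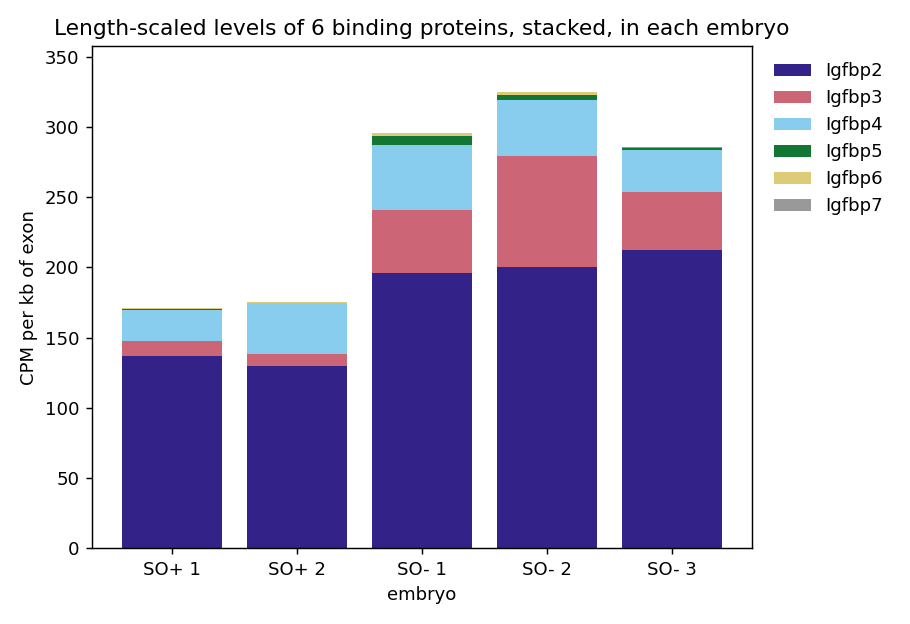
Level of each of the 6 binding proteins in CPM per kb of exon, stacked for each of the 5 embryos. The SO+ bars end at 171 and 175 and the SO- bars at 286 to 325, and the Igfbp3 segment takes 6.03% or less of the SO+ bars and 14.6% or more of the SO- bars.

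Marker lists of the tissues in these samples were read beside these levels. Anterior VE markers, 4 of 4 with a higher fitted level in SO-, had sums of 183 and 190 CPM in SO+ and 292, 293 and 268 CPM in SO- embryos, and Cer1 alone passed the test. Of 13 VE markers, 11 had a fold change above 0 and none passed, and sums overlapped, ranging from 3332 to 3752 CPM in SO+ and from 3188 to 5094 CPM in SO- embryos. Of 6 epiblast markers, 5 had a fold change below 0 and 2 fell, Dnmt3b and Utf1, with sums of 4490 to 5210 CPM against 2195 to 3290 CPM. Dnmt3b made up most of these sums, at 3983 and 3263 CPM in SO+ and 1708, 1447 and 2286 CPM in SO- embryos. The sums thus mainly follow that gene. Fgf5 went the other way, with a log2 fold change of 0.38 (SE 0.15). SO- embryo 3 had a VE sum below that of both SO+ embryos. Among the SO- embryos it also had the highest epiblast sum (3290 CPM) and the highest Pou5f1 (43.7 CPM). Its nascent mesoderm sum (84.7 CPM) was the lowest of the SO- embryos. In that embryo Igfbp3, Igfbp4 and Igfbp5 were at their lowest SO- values, 130, 133 and 7.63 CPM. Igfbp2 was at its highest there, 392 CPM.

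Nascent mesoderm markers (9 genes, 5 tested) summed to 64.7 and 126 CPM in SO+ and 166, 147 and 84.7 CPM in SO- embryos, with Hand1 higher in SO-. Extra-embryonic ectoderm markers summed to 10.6 and 12.2 CPM against 12.2 to 15.2 CPM. For maternal decidua and immune cells 6 of 9 markers, Prl8a2, Ptprc and C1qa among them, were at 0 in all embryos. The sums were 2.65 to 6.29 CPM in SO+ and 6.26 to 8.22 CPM in SO- embryos. Of the detected markers, Lum had 0 counts in both SO+ embryos and 5, 2 and 10 in the SO- embryos. Pgr was at 1.27 and 1.66 CPM in SO+ and 5.08, 3.58 and 3.58 CPM in SO- embryos, while Dcn overlapped. Primitive blood was represented by 1 marker alone, the embryonic globins being at 0, at 1.02 to 3.14 and 7.87 to 8.05 CPM. The part of these cell types in the levels of the binding proteins was not tested.

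The fold changes were also computed without each embryo, as a description of how far 1 library sets them. That of Igfbp3 ran from 2.21 without SO- embryo 2 to 2.67 without SO- embryo 3 on the log2 scale. Igfbp2 ranged between 0.56 and 0.64 and lost its call without SO- embryo 1 or SO- embryo 2. Igfbp5 lost its call in the same 2 fits, and its log2 fold change was 2.46 without SO- embryo 1 and 4.17 without SO+ embryo 1. Igfbp4 moved from 0.09 without SO+ embryo 1 to 0.78 without SO+ embryo 2, where it was called. Igf1r was at 0.02 without SO+ embryo 1 and -0.41 without SO+ embryo 2. Insr stayed between 0.20 and 0.34. Without an SO+ embryo, the remaining one was taken to vary like the SO- embryos.

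**Figure D4:**
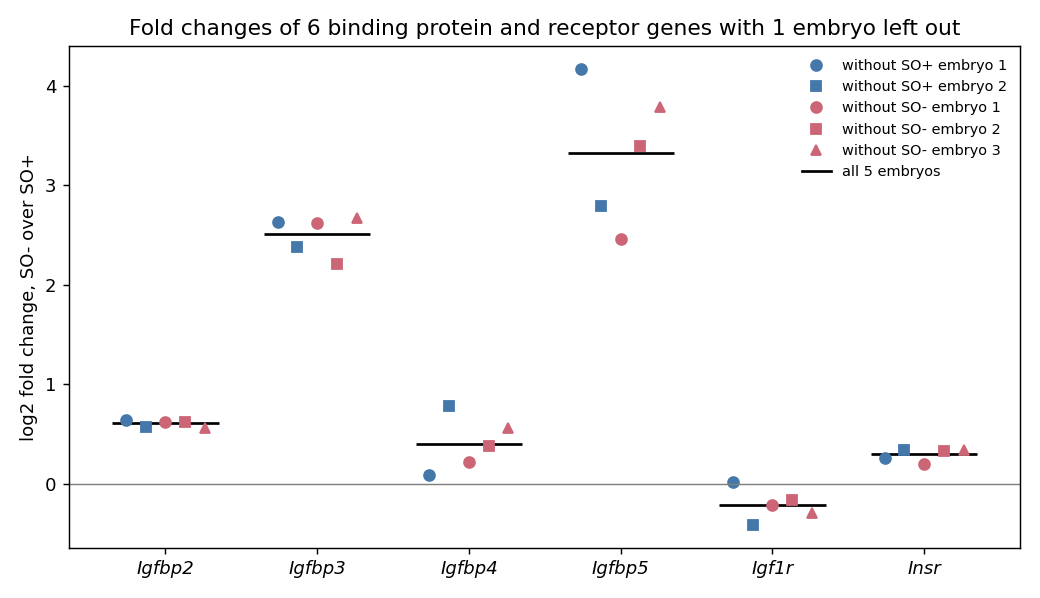
Log2 fold change of SO- over SO+ for the 6 tested genes with all 5 embryos (black lines) and with 1 embryo left out at a time (symbols, coloured by the genotype of the embryo left out). Igfbp2 and Insr hardly move, Igfbp5 ranges from 2.46 to 4.17, and Igfbp4 and Igf1r come to 0.09 and 0.02 without SO+ embryo 1.

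The rest of the pathway was read from 5 lists with 83 genes, 73 of which were tested. The lists, like the binding protein and receptor genes, were chosen with earlier results of these data known. Their calls, shares and adjusted p values are therefore a description, not an independent test. Igf2 and Cited2 rose in SO- embryos and Deptor and Foxo1 fell, 4 genes or 5.48% of those tested, against 2.35% over all genes. Of the 73, 41 were higher and 32 lower, with a median log2 fold change of 0.02, and 24 did not overlap between genotypes, 12 or 16.4% in each direction, near the 13.9% above and 15.6% below over all genes.

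Igf2, the ligand expressed from the paternal allele, was the called gene among 7 tested of 16 other family members and extracellular modulators. This 1 call was 14.3% of the tested genes of the list, against 2.35% over all genes. Igf2 stood at 37.8 and 41.3 CPM in SO+ and 101, 103 and 61.3 CPM in SO- embryos, with a log2 fold change of 1.14 (SE 0.21, adjusted p = 0.010, higher in 3 of 3 SO- embryos). Per kb of exon, Igf2 exceeded Igf1r 2.58- and 3.85-fold in SO+ and 9.34-, 10.5- and 5.20-fold in SO- embryos. Its exons share 98 bases with Igf2os on the opposite strand, which had 13 to 177 counts, and 3596 bases with Gm49394 on the same strand, which is not a gene of the count table. Igf2r, the receptor that clears IGF2, had a log2 fold change of 0.66 (SE 0.23, adjusted p = 0.196), with SO- above SO+ throughout. Igfbp1, the neighbour of Igfbp3, was not tested, at 0.327 and 0.629 CPM in SO+ and 1.69, 0 and 0.716 CPM in SO- embryos.

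None of 17 tested adaptors and inhibitors close to the receptor passed edgeR's test, and 0 passed DESeq2 or limma-voom. In edgeR's test 2 of the 17 had an unadjusted p under 0.05, as had 13.7% of all tested genes. Irs2, the other widely used IRS adaptor, was at 12.6 and 11.2 CPM in SO+ and 7.50, 3.58 and 9.07 CPM in SO- embryos (log2 fold change -0.70, SE 0.37, adjusted p = 0.439). Irs4, another member of the adaptor family, had a log2 fold change of 0.57 (SE 0.20, adjusted p = 0.197). Grb10, an imprinted inhibitor of both receptors, had a log2 fold change of 0.41 (SE 0.13, adjusted p = 0.134), and without SO+ embryo 2 it was called at 0.56 (adjusted p = 0.024).

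Of 34 genes of the PI3K, AKT and mTOR branch, 2 fell and none rose in edgeR's test, or 5.88% against 2.35% over all genes. Deptor, a subunit that inhibits mTOR complexes, was at 52.5 and 35.6 CPM in SO+ and 14.0, 17.0 and 22.7 CPM in SO- embryos (log2 fold change -1.28, SE 0.25, adjusted p = 0.018). Foxo1, a transcription factor that AKT keeps out of the nucleus, was at 71.0 and 45.0 CPM, then 30.0, 23.3 and 26.7 CPM (log2 fold change -1.08, SE 0.22, adjusted p = 0.021). Both were lower in 3 of 3 SO- embryos than in either SO+ embryo. Foxo3, a factor of the same family, had the lowest log2 fold change of this list, -1.47 (SE 0.37), which missed the threshold (adjusted p = 0.060) and was called by DESeq2. The kinase genes Akt1 and Mtor had log2 fold changes of 0.21 (SE 0.31, adjusted p = 0.856) and 0.02 (SE 0.16, adjusted p = 0.983), and both overlapped between genotypes.

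Of 12 FOXO target genes, 1 passed edgeR's test, or 8.33% against 2.35% over all genes. Cited2, a transcriptional coregulator, was at 28.9 and 44.1 CPM in SO+ and 81.7, 78.7 and 58.0 CPM in SO- embryos (log2 fold change 0.99, SE 0.21, adjusted p = 0.028, higher in 3 of 3 SO- embryos). Pik3ip1, an inhibitor of PI3K, had the highest log2 fold change of this list, 1.21 (SE 0.32), which missed the threshold (adjusted p = 0.077) and was called by DESeq2. None of the 3 genes for IGF2 mRNA-binding proteins passed edgeR's test, and 1, Igf2bp3, passed DESeq2. In edgeR's test 2 of the 3 had an unadjusted p under 0.05, against 13.7% of all tested genes. Without SO- embryo 1 or SO- embryo 2, none of the 76 and 77 list genes then tested passed, and 12 (15.8%) and 14 (18.2%) had an unadjusted p under 0.05, against 9.17% and 10.3% of all genes in those fits. By the same test 4 of 75 list genes passed without SO- embryo 3, against 263 of 14386 genes in that fit.

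**Figure D5:**
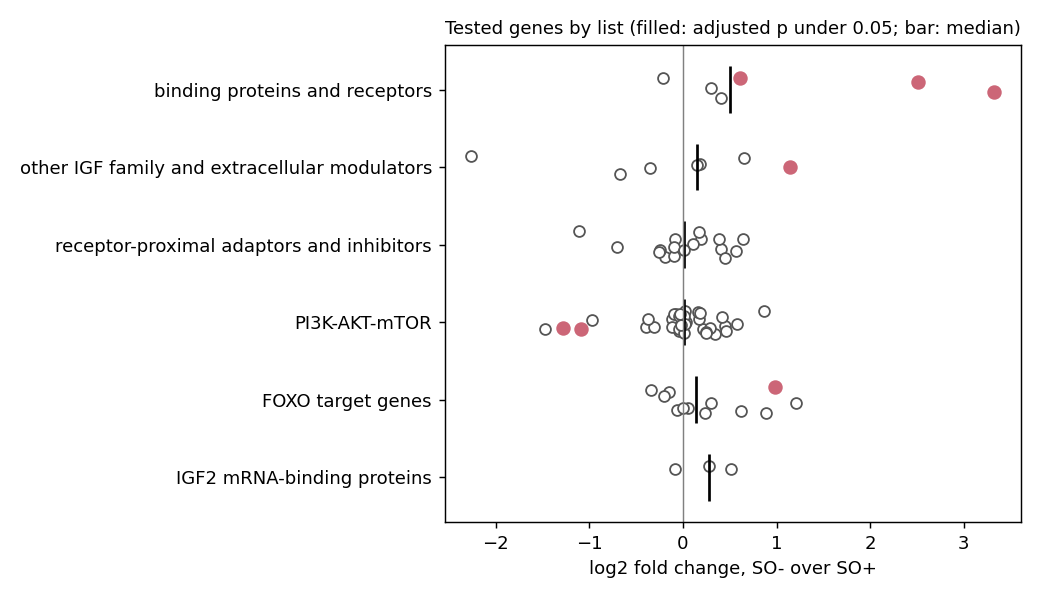
Log2 fold change of SO- over SO+ (horizontal axis) for each tested gene of the 6 binding proteins and receptors and of the 5 pathway lists (rows), with a bar at the median and filled points for an adjusted p under 0.05. The list medians lie between 0.01 and 0.28, and that of the binding proteins and receptors at 0.51.

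The genes whose pattern over the 5 embryos was most like that of Igfbp5, the binding protein with the highest log2 fold change, were Pmp22, Parp12 and Trim67. Likeness was the root mean square difference of log2(CPM + 1) values centred on each gene's mean, which was 0.43, 0.62 and 0.63 for these genes against a median of 1.52 over 9304 candidates. Pmp22 had 2.22 CPM in both SO+ embryos, against 30.5, 20.6 and 11.9 CPM in SO- embryos 1, 2 and 3, the same order among SO- embryos as in Igfbp5. For Igfbp4, the tested binding protein with the lowest log2 fold change, Mocs2 (0.03), Lpar1 (0.04) and Sumf1 (0.07) were closest, against a median of 0.40. Lpar1 was at 31.8 and 51.8 CPM in SO+ and 67.0, 57.3 and 45.8 CPM in SO- embryos, with SO+ embryo 1 lowest and SO- embryo 1 highest as in Igfbp4. The closest genes were picked on these same 5 embryos, so a shared order of embryos is no separate result.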

How the data were processed

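RNA-seq libraries of 2 SO+ and 3 SO- embryos, assigned from the labels, were made with SmartSeq2. The authors trimmed adapters, aligned reads with STAR to GRCm38/mm10, counted them with HTSeq on Ensembl 87 genes and deposited raw counts per gene. The strand setting and any removal of duplicates are not given in the sources used here, so reads of genes that overlap on opposite strands may be shared. Members and lists were chosen with earlier results of these data known.

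Counts were analysed with edgeR 4.0.16 in R 4.3.3 (filterByExpr, TMM scaling, quasi-likelihood test with genotype as the only term, Benjamini-Hochberg adjustment over 12067 genes, threshold 0.05). The SE was taken as the size of the log2 fold change over the root of its F statistic. CPM are counts per library total. Exon lengths and coordinates came from GENCODE M21, promoters from RefSeq. Counting intervals are exact 95% Poisson intervals. The test was run on simulated counts at these library totals. All genes and both genotypes shared 1 dispersion there, so the error rate of the test in these embryos was not checked. The text names the 10 genes, list genes with an adjusted p under 0.05 and Igf2, Igf2r, Igfbp1, Irs2, Grb10, Akt1, Mtor and Foxo1, and 1 other gene of this rule is not reported here. Irs4, Igf2bp3, Foxo3 and Pik3ip1 were named after their values were seen, as were Igf2os, Gm49394, Polr2b and Gm9747, which share bases with named genes. Likeness was computed over genes averaging a log2 CPM of 3 or more.

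Alternatives were DESeq2 1.42.0, limma-voom (limma 3.58.1), 2 other scalings, 2 other filters, a replicate block, each embryo left out and, chosen after seeing the data, random thinning of the SO+ libraries to the average total of the SO- ones (10 draws). The embryos are separate animals. Protein sequences were not used here.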

Additional observations from a re-analysis of the deposited data

How the results depend on the processing

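Over all genes, 283 passed the test, against 381 with DESeq2, 91 with limma-voom, 929 with the replicate block and 35 to 573 without 1 embryo, the lowest without SO- embryo 2 and the highest without SO+ embryo 2. Of the 73 tested pathway genes 4 passed, against 7 with DESeq2, 0 with limma-voom (12 or 16.4% at an unadjusted p under 0.05, against 12.1% of all genes), 11 with the replicate block and 0 to 8 without 1 embryo. Of the 10 binding protein, ligand, receptor and adaptor genes 6 were tested and 3 passed. With limma-voom 2 passed, which left out Igfbp5, with the replicate block 4, which added Igfbp4, and without 1 SO- embryo 1 to 3. In the replicate block SO- embryo 3 had no SO+ partner, so that fit compared the genotypes within 2 pairs alone. Same-numbered embryos are different animals and no source names a shared litter or day, so the numbers were not taken to pair them. Their deviations correlated with r of 0.008 and 0.115, which 2 pairs cannot settle. Differently numbered embryos had r between -0.133 and 0.133. The deviations of the 2 SO+ embryos mirror each other, so each SO- embryo has r of equal size and opposite sign with them. Thinning the SO+ libraries, chosen after seeing the data, gave 277, 5 and 3 genes. The cause of these changes was not tested.

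The log2 fold change of Igfbp3 lay between 2.21 and 2.67 over 13 alternatives, which reuse the embryos the gene was chosen on. Igf2 missed the threshold in 3 alternatives, Cited2 and Deptor in 4 and Foxo1 in 5, all in the direction given. The sign turned for Igf1r without SO+ embryo 1 (0.0227; without SO+ embryo 2, -0.4117), Akt1 without SO+ embryo 2 (-0.0653; without SO+ embryo 1, 0.5426) and Mtor without a filter on low counts (-0.0148), with the replicate block (-0.0376), without SO+ embryo 2 (-0.0984; without SO+ embryo 1, 0.1418), without SO- embryo 1 (-0.062) and without SO- embryo 3 (-0.0146). Grb10 gained the call with the replicate block (adjusted p = 0.0045) and without SO+ embryo 2. The level of Igfbp5 in SO- was 2.27 CPM per kb without SO- embryo 1 and that of Igfbp6 0.761 without SO- embryo 2, against 3.76 and 1.31. Depth limits Igfbp6, Igfbp7, Igf1 and Irs1, which had at most 7 counts in any SO- library.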
